A study of Arabidopsis thaliana with 30 samples.

Results

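The genes described here are 42 nuclear genes that encode light-harvesting proteins and subunits of photosystem I and photosystem II in Arabidopsis. They were taken by gene identifier from a list made by function, and the rule uses no measured value. They are 42 of the 32832 genes in the table of the experiment at 20 °C and 42 of the 34262 genes measured at 22 °C. All 42 were detected in every library, with at least 265 counts at 20 °C and 444 estimated counts at 22 °C, and all 42 passed the filter on low counts in both experiments. By role they are 5 LHCB1 genes, 4 genes of LHCB2 and LHCB3, 5 genes of the minor photosystem II antenna, 6 LHCA genes, 12 photosystem I subunits, 6 extrinsic subunits around the oxygen-evolving complex, and 4 further photosystem II proteins that include PSBS.

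Light-harvesting proteins bind chlorophyll and pass excitation energy to the photosystems. LHCB1, LHCB2 and LHCB3 form the trimeric antenna of photosystem II, LHCB4, LHCB5 and LHCB6 link these trimers to its core, and the LHCA proteins form the antenna of photosystem I. The reaction centres of both photosystems are encoded in the chloroplast genome, while the antenna and most peripheral subunits are encoded in the nucleus, made in the cytosol and imported. In Arabidopsis leaves these nuclear genes are known to respond to light, to sugar and to the circadian clock, and the GLK transcription factors are known to promote their expression.

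The study asked how SERRATE (SE), a protein that promotes miRNA processing, and HEN2, the RNA helicase of the nuclear exosome targeting (NEXT) complex, act on nuclear RNA. RNA was sequenced from leaves of 4-week-old plants of the Columbia accession (Col-0), grown in soil with 16 h of light and 8 h of darkness, in 3 replicates per genotype. The experiment at 20 °C held the double mutant se-2 hen2-2 (labelled hen2-2 x se2), se-2 (labelled se2), hen2-2 and WT, and the experiment at 22 °C held hen2-2 (GK774_H07) and WT. Each single mutant is 1 T-DNA insertion line, the double mutant was made by crossing them, and all groups share the Col-0 background. The labels call the tissue aerial tissue, and the methods call it rosette leaves. The time of day at harvest is not given in the sources used here. In whole leaves, fewer cells of a type and less RNA per cell cannot be told apart.

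Libraries at 20 °C held 47.7 to 156.6 M counts, of which 50.59 to 72.23% lay on chloroplast genes, and libraries at 22 °C held 62.6 to 105.5 M estimated counts with 77.62 to 81.48% on chloroplast genes. The 42 genes took 2.887 to 7.338% of the counts on nuclear genes at 20 °C and 7.156 to 12.34% at 22 °C. At 20 °C the 6 libraries of over 100 M counts, which are replicate 1 of all 4 genotypes and replicate 2 of hen2-2 and WT, differed from the other 6 in depth (121 to 157 M against 47.7 to 58.1 M) and in the chloroplast share (68 to 72.2% against 50.6 to 57.8%). HEN2 was lower in both genotypes that carry hen2-2, with 2.29 to 4.36 CPM in se-2 hen2-2 and 2.3 to 2.94 CPM in hen2-2, against 6.28 to 8.11 CPM in WT (CPM, counts scaled to a common library total after TMM normalization). SE was lower in both genotypes that carry se-2, with 2.61 to 3.26 CPM in se-2 hen2-2 and 2.45 to 3.07 CPM in se-2, against 5.59 to 6.84 CPM in WT. Markers of flowers stayed at or below 48 counts in any library, and markers of mesophyll, the tissue that holds most leaf chloroplasts, were abundant in all libraries.

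As levels per transcript length at 22 °C, in TPM (transcript abundance scaled to a common library total), the 42 genes spanned a 202-fold range. LHCB1.3 (AT1G29930) was the most abundant, with 896, 1157 and 1017 TPM in hen2-2, against 981, 1008 and 1199 TPM in WT, and ranked 8th among 32548 nuclear genes by its mean over the 6 libraries. PSBR (AT1G79040), a subunit that helps to hold the oxygen-evolving proteins, followed with 618, 569 and 514 TPM in hen2-2, against 781, 620.0 and 609 TPM in WT. LHCB1.5 and LHCB1.2 were next, with means of 405 and 397 TPM in hen2-2 and 428 and 409 TPM in WT, which differ by less than the spread between replicates. Of the 42 genes, 21 were among the 50 most abundant nuclear genes and 30 among the first 100.

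The 4 least abundant members were LHCB4.3, LHCA6, PSAD2 and LHCA5. LHCB4.3 (AT2G40100), also called LHCB8, had 4.32, 3.03 and 6.32 TPM in hen2-2, against 5.59, 3.33 and 8.36 TPM in WT. LHCA6 (AT1G19150) and LHCA5 (AT1G45474), which link photosystem I to the NADH dehydrogenase-like complex, had means of 5.62 and 8.95 TPM in hen2-2 and 5.49 and 9.83 TPM in WT. PSAD2 (AT1G03130), the minor copy of a stromal subunit, had a mean of 7.68 TPM in hen2-2 and 7.77 TPM in WT, and the major copy PSAD1 (AT4G02770) had 33.9 TPM in hen2-2 and 33.1 TPM in WT. Summed by role, LHCB1 transcripts took 0.643 to 1.72% of nuclear TPM, the LHCA genes 0.395 to 0.952% and the photosystem I subunits 0.391 to 0.823%.

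**Figure D1:**
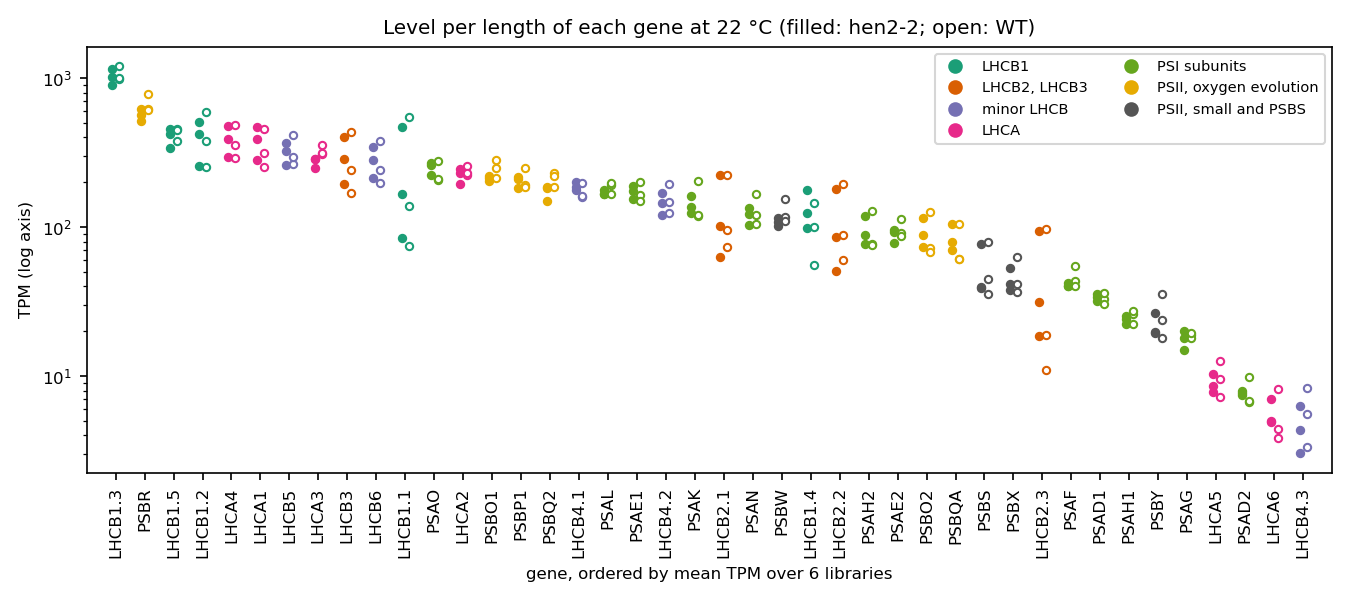
Level of each of the 42 genes in TPM (log axis) in the 6 libraries at 22 °C, with 1 point per library of hen2-2 and WT. Genes are ordered by mean TPM and coloured by role. LHCB1.3 lies highest and LHCB4.3 lowest, and the points of hen2-2 and WT overlap for every gene but LHCA3 and PSBQ2.

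The comparison of se-2 hen2-2 with WT asks how these transcripts differ when both mutations are present. The paper describes se-2 as a truncation of SE at its C-terminus, and complete loss of SE as embryonic lethal. Most of the 42 genes were lower in the double mutant: 38 had a negative log2 fold change and 4 a positive one, with a median of -0.42, beside a median of 0.01 over all 19454 genes tested. By edgeR's quasi-likelihood test, with p adjusted over all genes by the Benjamini-Hochberg method and called under 0.05, 3 members fell (LHCB1.4, PSBX and PSBW), where 0.668% of all genes fell, and none rose, where 1.71% did. DESeq2 called 15 lower (2.36% of all genes). With the replicate number as a term in the same test, 22 of the 42 fell, where 3.58% of all genes fell, and 23 had an unadjusted p under 0.05 without that term, where 14.6% of all genes did. For 20 of the 42 genes every se-2 hen2-2 library lay below every WT library, as for 9.82% of all genes, and for none was it the other way. The 22 genes were spread over the roles: 3 of 5 LHCB1 genes, 2 of the 4 LHCB2 and LHCB3 genes, 1 of 5 minor antenna genes, 2 of 6 LHCA genes, 8 of 12 photosystem I subunits, 4 of 6 extrinsic subunits and 2 of the last 4. Their names are LHCB1.2, LHCB1.3, LHCB1.4, LHCB2.2, LHCB2.3, LHCB5, LHCA2, LHCA3, PSAE1, PSAF, PSAG, PSAH2, PSAK, PSAL, PSAN, PSAO, PSBO1, PSBO2, PSBP1, PSBR, PSBX and PSBW.

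LHCB1.4 (AT2G34430), a copy of the main trimeric antenna protein, fell most. Its levels were 56.1, 79.6 and 108 CPM in se-2 hen2-2, 154, 143 and 176 in se-2, 169, 217 and 213 in hen2-2 and 170.2, 193 and 190.3 in WT. The 3 double-mutant libraries lay below all 9 others, and both single mutants overlapped WT. The log2 fold change was -1.18 ± 0.22 (SE, adjusted p = 0.015, edgeR). LHCB1.4 and its neighbour LHCB1.5 on chromosome 2 share 3.3% and 4.23% of their 100-base stretches, and reads from such stretches could be counted for either copy. The sum of this pair had a log2 fold change of -0.63 ± 0.19 and was not called (adjusted p = 0.12, edgeR).

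LHCB1.3, the most abundant copy, had 1921, 1665 and 1720.1 CPM in se-2 hen2-2, 2882, 2074 and 2075 in se-2, 3050.4, 2979.9 and 2275 in hen2-2 and 3289, 3158 and 2399 in WT. All double-mutant libraries lay below all WT libraries, with a log2 fold change of -0.74 ± 0.19 (adjusted p = 0.067 by edgeR, and 0.0021 with the replicate term). LHCB1.1, LHCB1.2 and LHCB1.3 (AT1G29920, AT1G29910 and AT1G29930) lie side by side on chromosome 1 of TAIR10.1 between 10472280 and 10479114, with coding sequences of 804 bases that are 95.65 to 96.39% identical. They shared at most 3.27% of their 100-base stretches. Their summed counts fell, with a log2 fold change of -0.68 ± 0.16 (adjusted p = 0.049, edgeR).

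In the trimeric antenna beside LHCB1, the genotype effect was small next to the spread between replicates. LHCB2.2 (AT2G05070) had 36.1, 281 and 298 CPM in se-2 hen2-2, 42.3, 312 and 362 in se-2, 73.4, 415 and 416 in hen2-2 and 65.6, 372 and 387 in WT. In every genotype replicate 1 was far below the others, so the groups overlapped. Its log2 fold change in the double mutant was -0.42 ± 0.93 (adjusted p = 0.9, edgeR), and -0.55 ± 0.13 with the replicate term (adjusted p = 0.025). LHCB3 (AT5G54270), the third kind of trimer subunit, had 389, 902 and 898 CPM in se-2 hen2-2, 447, 911 and 987 in se-2, 642, 1295 and 1129 in hen2-2 and 511, 1122 and 998 in WT. It showed the same split, with a log2 fold change of -0.27 ± 0.41 (adjusted p = 0.85, edgeR).

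Of the minor antenna, LHCB5 (AT4G10340), also called CP26, had 665, 677 and 706 CPM in se-2 hen2-2, 802, 732 and 807 in se-2, 1158, 1386 and 941 in hen2-2 and 1113, 1275 and 877 in WT. No double-mutant library reached the level of any WT or hen2-2 library, and the log2 fold change was -0.67 ± 0.17 (adjusted p = 0.072 by edgeR, 0.012 with the replicate term). LHCB4.1 (AT5G01530), a CP29 gene, had 332, 393 and 379.7 CPM in se-2 hen2-2, 353, 412 and 419.9 in se-2, 534, 516 and 534 in hen2-2 and 469.8, 459 and 455 in WT, again with all double-mutant libraries under WT (-0.33 ± 0.13, adjusted p = 0.24, edgeR). LHCB6 (AT1G15820), or CP24, had 378, 732 and 771 CPM in se-2 hen2-2, 409, 799 and 859 in se-2, 614, 935 and 1012 in hen2-2 and 580.3, 826 and 893 in WT. Its libraries overlapped between genotypes. LHCB4.3 was at low levels throughout, 14.7, 19.9 and 13.2 CPM in se-2 hen2-2, 13, 11.8 and 4.05 in se-2, 19.3, 10.3 and 8.77 in hen2-2 and 20.9, 9.42 and 6.8 in WT, and its log2 fold change of 0.36 ± 0.48 was within the spread between libraries.

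In the photosystem I antenna, LHCA3 (AT1G61520), which pairs with LHCA2 at the core, had 486, 441 and 438 CPM in se-2 hen2-2, 576, 510.2 and 511 in se-2, 776, 898 and 581 in hen2-2 and 763, 875 and 579 in WT. All double-mutant libraries lay below all WT libraries (-0.70 ± 0.19, adjusted p = 0.084 by edgeR, 0.0084 with the replicate term). LHCA4 (AT3G47470), the partner of LHCA1, had 556, 1152 and 1186 CPM in se-2 hen2-2, 638, 1212 and 1264 in se-2, 822, 1601 and 1479.6 in hen2-2 and 649, 1405 and 1309 in WT, and the genotypes overlapped. LHCA5 had 19.8, 16.1 and 15.5 CPM in se-2 hen2-2, 20.5, 16.5 and 16.1 in se-2, 27.6, 24.7 and 22.8 in hen2-2 and 27.6, 22.5 and 17.5 in WT, and se-2 hen2-2 overlapped with WT. LHCA6 had 8.36, 7.7 and 8.52 CPM in se-2 hen2-2, 9.01, 7.34 and 11.9 in se-2, 17.4, 12.5 and 9.0 in hen2-2 and 17.7, 13.1 and 10.3 in WT, where the double mutant and WT did not overlap (-0.74 ± 0.27, adjusted p = 0.21, edgeR).

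Of the 12 photosystem I subunits 8 fell with the replicate term. PSAO (AT1G08380), a subunit at the side where LHCII docks, had 239, 248 and 247 CPM in se-2 hen2-2, 311, 318 and 309 in se-2, 388, 385 and 319 in hen2-2 and 359, 354 and 291 in WT. The 3 double-mutant libraries were close to each other and below all 9 others (-0.45 ± 0.13, adjusted p = 0.12 by edgeR, 0.02 with the replicate term). PSAG (AT1G55670), a membrane subunit next to the LHCA belt, had 15.9, 14.6 and 20.1 CPM in se-2 hen2-2, 27.7, 19.3 and 24.1 in se-2, 25.3, 24.1 and 20.8 in hen2-2 and 35.8, 36.8 and 18.7 in WT. Here WT replicate 3 lay within the range of the double mutant (-0.86 ± 0.25, adjusted p = 0.12 by edgeR, 0.0498 with the replicate term). Of the stromal subunits, at which ferredoxin docks, PSAD1 had 42.7, 57.4 and 70.1 CPM in se-2 hen2-2, 49.3, 58 and 66.2 in se-2, 68.4, 73 and 75.2 in hen2-2 and 74.4, 82.4 and 67.9 in WT. PSAD2 had 6.53, 18 and 27.9 CPM in se-2 hen2-2, 7.77, 17.1 and 22.8 in se-2, 9.64, 19.1 and 23.5 in hen2-2 and 12, 23 and 15.4 in WT. PSAE2 (AT2G20260) had 77.3, 73.2 and 68.8 CPM in se-2 hen2-2, 86.1, 86.5 and 82 in se-2, 109, 79.1 and 101 in hen2-2 and 101, 75.4 and 100.2 in WT. In none of these 3 did the double mutant and WT separate, and none was called with or without the replicate term.

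Among the extrinsic subunits of photosystem II, PSBO1 (AT5G66570), the main manganese-stabilizing protein, had 370.0, 359.8 and 333 CPM in se-2 hen2-2, 525, 442 and 437 in se-2, 626, 533 and 454 in hen2-2 and 639, 575 and 477 in WT. Its second copy PSBO2 (AT3G50820) had 178, 194 and 194 CPM in se-2 hen2-2, 214, 231 and 203 in se-2, 313, 276 and 269 in hen2-2 and 244, 256 and 253 in WT. In both, all double-mutant libraries lay below all others, and the log2 fold changes were -0.67 ± 0.16 and -0.41 ± 0.12 (adjusted p = 0.056 and 0.13 by edgeR, 0.0016 and 0.03 with the replicate term). PSBP1 (AT1G06680) had 376, 295 and 291 CPM in se-2 hen2-2, 442, 324 and 335 in se-2, 626, 560.0 and 384 in hen2-2 and 572, 563 and 403 in WT. All double-mutant libraries lay below all WT libraries (-0.68 ± 0.22, adjusted p = 0.16 by edgeR, 0.0071 with the replicate term). PSBQ2 (AT4G05180) had 295, 265 and 275 CPM in se-2 hen2-2, 253, 307 and 322 in se-2, 426, 355 and 327 in hen2-2 and 443, 375 and 277 in WT. For PSBQ2 the highest double-mutant library lay above the lowest WT library.

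The other genes that fell were small membrane subunits of photosystem II. PSBX (AT2G06520) had 31.2, 29.9 and 39.2 CPM in se-2 hen2-2, 50.8, 46.5 and 49.6 in se-2, 50.7, 51.1 and 46.6 in hen2-2 and 55.1, 69.2 and 50.1 in WT. PSBW (AT2G30570), which stabilizes the supercomplex of photosystem II and its antenna, had 122, 133 and 140.3 CPM in se-2 hen2-2, 156, 169.7 and 175 in se-2, 189, 179.7 and 174 in hen2-2 and 187, 218 and 195 in WT. In both genes the double mutant lay below all other libraries, and the log2 fold changes were -0.80 ± 0.16 and -0.60 ± 0.13 (adjusted p = 0.025 and 0.03, edgeR). PSBS (AT1G44575), which triggers the harmless release of excess light energy, had 145, 170.5 and 177 CPM in se-2 hen2-2, 121, 158 and 155 in se-2, 164, 173 and 158 in hen2-2 and 155, 147 and 149 in WT. It was 1 of the 4 members with a positive fold change (0.13 ± 0.14, adjusted p = 0.77, edgeR), and its libraries overlapped.

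The call of the 3 genes rested on single libraries. Without replicate 2 of se-2 hen2-2 or of WT no member was called lower, without replicate 1 of either genotype 1 was, and without se-2 replicate 1, which only adds to the estimate of the spread, 5 were. When the 6 deep libraries were given a term of their own, an alternative chosen after seeing the data, 11 members fell (1.46% of all genes), and with this term and the replicate term 20 did (also 2.36% of all genes).

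**Figure D2:**
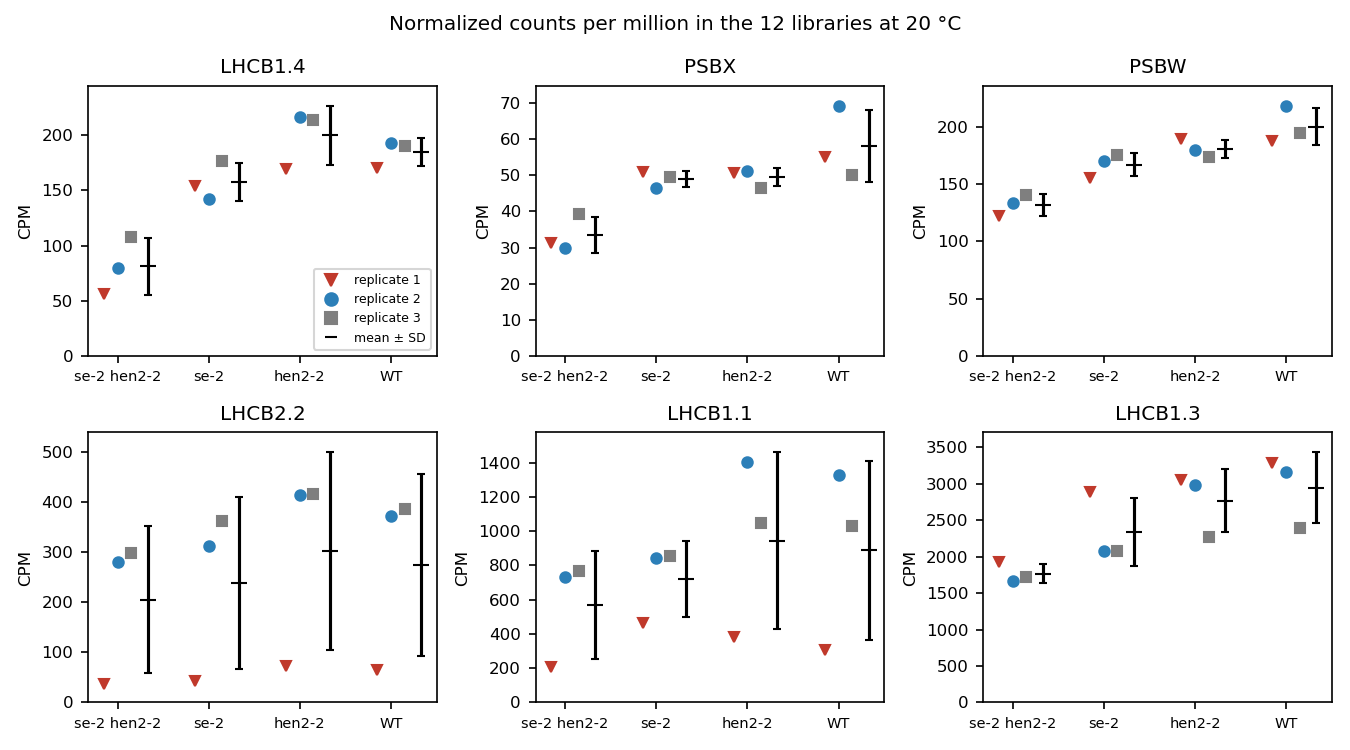
Normalized CPM of 6 genes in each of the 12 libraries at 20 °C, by genotype, with replicate 1, 2 and 3 marked and bars for the mean ± SD of 3 libraries. LHCB1.4, PSBX and PSBW are lowest in the 3 se-2 hen2-2 libraries, while LHCB2.2 and LHCB1.1 are lowest in replicate 1 of every genotype.

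Beside this comparison, values of other photosynthesis genes in se-2 hen2-2 against WT are given by list. The median log2 fold change was -0.44 over 18 Calvin cycle genes, of which 1 fell (PRK, phosphoribulokinase, -0.68), and -0.51 over 16 chlorophyll synthesis genes, of which 2 fell, PORA (-3.54) and PORB (-1.13), both light-dependent protochlorophyllide reductases. Over 13 genes of electron transport and ATP synthase it was -0.27, with 1 gene lower (ATPG, -1.11). Over 133 chloroplast-encoded genes tested it was -0.25, with 13 lower and 1 higher. With the replicate term 9 of the 18 Calvin cycle genes, 8 of the 16 chlorophyll synthesis genes and 4 of the 13 genes of electron transport and ATP synthase fell, beside 22 of the 42 members, and whether these shares differ was not tested. None of 9 clock genes was called with or without that term, and of 10 regulators GLK1 (AT2G20570) rose by 0.86 on the log2 scale (adjusted p = 0.032, edgeR). Its levels were 20.6, 23.7 and 26.8 CPM in se-2 hen2-2, 9.24, 10.6 and 13.6 in se-2, 11.1, 13.8 and 13.9 in hen2-2 and 13.3, 11.6 and 14.3 in WT, and the double mutant lay above all 9 other libraries. Under the replicate term 2 regulators rose and 1 fell. GLK2 (AT5G44190) was not called and had 6.33, 43.7 and 47.5 CPM in se-2 hen2-2, 5.63, 40.2 and 46.3 in se-2, 5.14, 41.3 and 51.7 in hen2-2 and 7.29, 33.5 and 42.6 in WT.

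Cell type markers were compared in the same libraries, and RCA and RBCS1A are in both the mesophyll and the Calvin cycle lists. The summed level of 4 mesophyll genes was 932 to 1383 CPM in se-2 hen2-2, against 1511 to 1840 CPM in WT, with 0 of 4 called. The 3 phloem markers summed to 42.96 to 52.9 CPM in se-2 hen2-2 and 61.2 to 69.3 CPM in WT, again with none called, and 5 senescence markers to 6.23 to 14.0 CPM in se-2 hen2-2 and 15.3 to 37.5 CPM in WT, where SEN1 fell (-3.05). The 5 epidermis markers overlapped (36.1 to 50.9 CPM in se-2 hen2-2, 40.98 to 51.9 CPM in WT). Of these lists 2 of 4 mesophyll markers, 1 of 3 phloem markers and 2 of 4 senescence markers tested fell with the replicate term, and none of the 5 epidermis markers was called. The part of these markers in the lower photosystem transcripts was not tested.

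Against hen2-2 alone, the double mutant was lower for 40 of the 42 genes, with a median log2 fold change of -0.53 beside 0.01 over all genes. LHCB1.4 fell (-1.3 ± 0.22, adjusted p = 0.025, edgeR), where 0.149% of all genes fell, and with the replicate term 27 members fell, where 1.82% of all genes did. At an unadjusted p under 0.05 there were 27 members, and 10.1% of all genes, and DESeq2 called 15 lower (1.19% of all genes). For 28 of the 42 genes the double-mutant libraries all lay below the hen2-2 libraries, as for 7.86% of all genes. With the replicate term all 4 genes of LHCB2 and LHCB3, 5 of 6 LHCA genes and 5 of 6 extrinsic subunits were among those that fell. PSBO2 had the second smallest p, with a log2 fold change of -0.60 ± 0.12 (adjusted p = 0.063, edgeR). The members with a positive value were LHCB4.3 (0.31 ± 0.48) and PSAD2 (0.01 ± 0.52). In this comparison 9 of 18 Calvin cycle genes, 10 of 16 chlorophyll synthesis genes and 2 of 4 mesophyll markers fell too with the replicate term. The LHCB1.4 call was lost without replicate 2 of se-2 hen2-2 or without any 1 of the hen2-2 replicates.

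Against se-2 alone, the double mutant was lower for 37 of the 42 genes, with a median of -0.21 beside 0.01 over all genes, and no member was called by edgeR, where 0.884% of all genes were. At an unadjusted p under 0.05 there were 7 members, and 10.9% of all genes, and 2 fell by DESeq2 (1.17% of all genes). With the replicate term LHCB1.4 (-0.99 ± 0.15, adjusted p = 0.0036) and PSBO1 (-0.40 ± 0.10, adjusted p = 0.041) fell, where 1.34% of all genes did. For 15 members all double-mutant libraries lay below all se-2 libraries (7.27% of all genes), and for LHCB4.3 all lay above (8.55% of all genes). Without that term LHCB1.4 had -0.96 ± 0.22 and PSBX -0.55 ± 0.16 (adjusted p = 0.071 and 0.19, edgeR), and PSBS (0.18 ± 0.14) followed LHCB4.3 (0.72 ± 0.49) among those with a positive value. In the same comparison GLK1 rose (1.09), while PORA (-3.61), ATPG (-0.86), the phloem marker AHA3 (-0.91) and the senescence marker SEN1 (-2.17) fell, and their part in the lower members was not tested. Under the replicate term 1 of 18 Calvin cycle genes, 2 of 16 chlorophyll synthesis genes, 2 of 13 genes of electron transport and ATP synthase, 1 of 5 epidermis markers and 2 of 4 senescence markers fell.

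In se-2 itself all 42 genes had a negative log2 fold change against WT, from -0.54 (LHCA6) to -0.05 (PSBS), with a median of -0.24 beside -0.00048 over all genes. No member was called by edgeR, where 0.324% of all genes were, and none with the replicate term (2.04% of all genes), where the smallest adjusted p was 0.083 (PSBP1). At an unadjusted p under 0.05 there were 4 members, and 7.09% of all genes, and DESeq2 called none (1.76% of all genes). LHCB5 and LHCA3 had the smallest p (-0.48 ± 0.17 and -0.47 ± 0.19, adjusted p = 0.49 and 0.58, edgeR). For 9 members every se-2 library lay below every WT library, where 6.5% of all genes did, and they were LHCB4.1, LHCB5, LHCA2, LHCA3, PSAD1, PSAK, PSBO2, PSBR and PSBW. The members share libraries and replicates, so 42 negative values are not 42 independent observations. The median was -0.21 over the Calvin cycle genes and -0.20 over the chlorophyll synthesis genes in the same comparison, and mesophyll markers summed to 1216 to 1524 CPM in se-2, against 1511 to 1840 CPM in WT. Under the replicate term 1 of 16 chlorophyll synthesis genes and 1 of 13 genes of electron transport and ATP synthase fell, and no Calvin cycle gene or mesophyll marker was called.

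In hen2-2 at 20 °C 31 members had a positive and 11 a negative log2 fold change against WT, the median was 0.07, and none was called by edgeR (0.308% of all genes were) or DESeq2 (1.35%). At an unadjusted p under 0.05 there was 1 member, and 5.27% of all genes. LHCA1 (AT3G54890), the partner of LHCA4, had the smallest p. Its levels were 569.8, 851 and 909 CPM in se-2 hen2-2, 445, 929 and 748 in se-2, 879, 1349.5 and 1260.2 in hen2-2 and 654, 822 and 744 in WT, so that all 3 hen2-2 libraries lay above the WT libraries. The log2 fold change was 0.65 ± 0.27 (adjusted p = 0.82, edgeR), and LHCA1 rose with the replicate term (0.63 ± 0.13, adjusted p = 0.046), where 0.838% of all genes did. LHCB4.1, PSBO2 and PSBS were the other members with no overlap (4 of 42 higher, beside 7.06% of all genes), with log2 fold changes of 0.19 ± 0.13, 0.19 ± 0.12 and 0.14 ± 0.14. PSAG (-0.38 ± 0.25) and PSBX (-0.23 ± 0.16) had the smallest p among those below WT (adjusted p = 1.0 and 1.0, edgeR).

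The same mutant at 22 °C showed no called member either by edgeR (1.35% of all genes were called) or DESeq2 (5.01%), and none at an unadjusted p under 0.05 (13.1% of all genes), with 39 positive and 3 negative log2 fold changes and a median of 0.18. PSAD1 had 67, 72.2 and 69.6 CPM in hen2-2, against 47.4, 52.6 and 72.1 CPM in WT. LHCB4.1 had 429, 549.5 and 517 CPM in hen2-2, against 301, 362 and 512 CPM in WT. In both genes WT replicate 3 lay among the hen2-2 libraries, and the log2 fold changes were 0.28 ± 0.19 and 0.35 ± 0.25 (adjusted p = 0.62 and 0.63, edgeR). On CPM PSAE2 was the 1 member whose groups did not overlap (11.2% of all genes were higher without overlap). It had 72.1, 85.6 and 72.2 CPM in hen2-2, against 66.8, 63.9 and 69.6 CPM in WT. On TPM its groups overlapped, with 92.3, 94.9 and 77.7 TPM in hen2-2, against 114, 91.3 and 86.6 TPM in WT. The members without overlap on TPM were LHCA3 and PSBQ2, both lower in hen2-2. LHCB4.3 (-0.11 ± 0.45) and PSBQ2 (-0.03 ± 0.17) were among the 3 below WT. The positive sign depended on the scale: on log2(TPM + 1) the median of the members was -0.04, with 16 positive and 26 negative, where the median of all genes tested was -0.09. On counts the median was -0.01 without WT replicate 1 and 0.52 without WT replicate 3. With the replicate term no member was called, where 12.3% of all genes were. Of 5 senescence markers SAG12 (-4.52) and SAG13 (-1.16) fell in the same comparison, 3 of the 5 fell and 1 of 4 mesophyll markers rose with the replicate term, and their part in the values of the members was not tested.

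The interaction asks whether the effect of hen2-2 in se-2 plants differs from its effect in WT plants. The interaction term was negative for 38 of the 42 genes, with a median of -0.28 beside -0.01 over all genes, but no member was called by edgeR, where 0.0154% of all genes were. At an unadjusted p under 0.05 there were 4 members (5.6% of all genes), and DESeq2 called none (0.68% of all genes). LHCB1.4 had the smallest p (-1.07 ± 0.30, adjusted p = 0.51, edgeR), followed among the negative ones by PSAO (-0.48 ± 0.19, adjusted p = 0.82). LHCB4.3 (0.68 ± 0.68) and PSBS (0.05 ± 0.20) had the smallest p of those with a positive term. With the replicate term LHCB2.3 was called (-1.1 ± 0.20, adjusted p = 0.045, edgeR), where 0.139% of all genes were called lower. The comparisons with WT, with the single mutants and this term share libraries, so their values are not independent of each other.

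**Figure D3:**
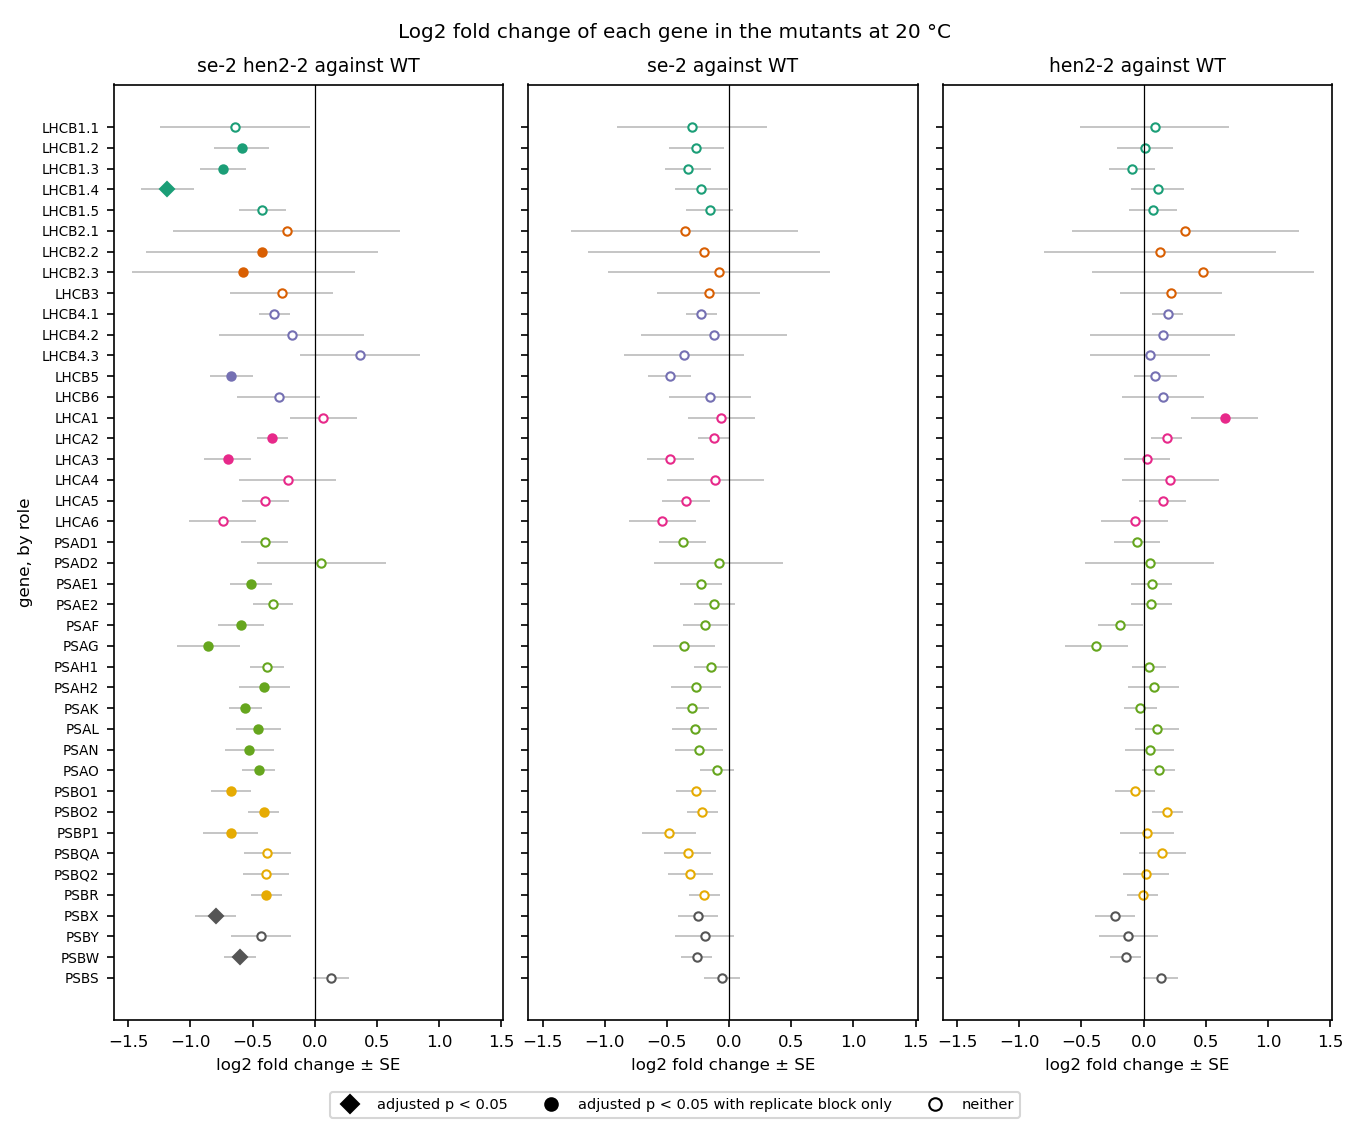
Log2 fold change ± SE of each of the 42 genes in se-2 hen2-2, se-2 and hen2-2 against WT at 20 °C, ordered by role, with filled diamonds for genes called by edgeR at an adjusted p under 0.05, filled circles for those called only with the replicate term and open circles for the others. Most points of se-2 hen2-2 and all points of se-2 lie left of 0, while those of hen2-2 lie around it.

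The largest differences within this gene group were not between genotypes but between replicates. In the 4 libraries of replicate 1 at 20 °C the summed CPM of the LHCB2 and LHCB3 genes was 507 to 895, against 1718 to 2696 in replicates 2 and 3, and the same split appeared in all 4 genotypes. By edgeR's quasi-likelihood test with genotype in the model, 14 members fell and 6 rose in replicate 1 against replicates 2 and 3, where 8.6% and 10.4% of all genes did. In every genotype the replicate 1 library lay below both others for 15 members (9.92% of all genes) and above both for 5 (12.2% of all genes). The median over the members was -0.12, beside 0.03 over all genes. Earlier results of these data had shown that the members vary by replicate number, so these values describe a known pattern.

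LHCB2.2 had 36.1, 42.3, 73.4 and 65.6 CPM in replicate 1 of se-2 hen2-2, se-2, hen2-2 and WT, against 281 to 416 CPM in the 8 libraries of replicates 2 and 3. LHCB2.1 (AT2G05100) had 65.8, 64.4, 130.3 and 82.3 CPM in replicate 1 of se-2 hen2-2, se-2, hen2-2 and WT, against 341 to 738 CPM in the 8 libraries of replicates 2 and 3. LHCB2.3 (AT3G27690) had 16.7, 23.9, 49.1 and 26.5 CPM in replicate 1 of se-2 hen2-2, se-2, hen2-2 and WT, against 110.0 to 247 CPM in the 8 libraries of replicates 2 and 3. All 4 replicate 1 libraries lay below all 8 others in each of the 3 genes, which encode an antenna subunit whose phosphorylation is needed for state transitions, the balancing of light between the photosystems. Their log2 fold changes were -2.75 ± 0.11, -2.66 ± 0.13 and -2.6 ± 0.12 (adjusted p = 8.8e-08, 1.9e-07 and 1.3e-07, edgeR). LHCB2.1 and LHCB2.2 share 9.87% and 12.4% of their 100-base stretches, and LHCB2.3 shares none with either.

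The stretches upstream of the genes that split most are shown to compare copies that moved together, the 3 LHCB2 genes, with neighbours that moved apart, LHCB1.1 and LHCB1.3. Each is the 250 bases before the annotated transcript start in the RefSeq annotation of TAIR10.1, on the strand of the gene, with matches to the searched motifs in capitals. The regions are chr2:1824481-1824730 (minus strand) for LHCB2.1, chr2:1800473-1800722 (minus) for LHCB2.2, chr3:10255656-10255905 (plus) for LHCB2.3, chr1:10475970-10476219 (minus) for LHCB1.1 and chr1:10477635-10477884 (plus) for LHCB1.3.
LHCB2.1: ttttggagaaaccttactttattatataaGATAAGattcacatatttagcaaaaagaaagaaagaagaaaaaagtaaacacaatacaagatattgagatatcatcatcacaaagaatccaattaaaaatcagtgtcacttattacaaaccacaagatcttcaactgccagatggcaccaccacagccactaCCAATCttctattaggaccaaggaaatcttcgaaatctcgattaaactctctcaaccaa
LHCB2.2: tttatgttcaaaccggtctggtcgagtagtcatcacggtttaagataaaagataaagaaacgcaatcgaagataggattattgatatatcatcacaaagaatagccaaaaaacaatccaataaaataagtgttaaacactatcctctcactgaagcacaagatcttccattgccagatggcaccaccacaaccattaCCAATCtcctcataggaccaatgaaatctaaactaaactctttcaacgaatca
LHCB2.3: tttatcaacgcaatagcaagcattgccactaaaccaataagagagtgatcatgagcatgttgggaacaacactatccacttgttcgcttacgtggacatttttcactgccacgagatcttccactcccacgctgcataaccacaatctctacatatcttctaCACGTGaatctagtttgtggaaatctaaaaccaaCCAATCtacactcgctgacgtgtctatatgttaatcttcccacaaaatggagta
LHCB1.1: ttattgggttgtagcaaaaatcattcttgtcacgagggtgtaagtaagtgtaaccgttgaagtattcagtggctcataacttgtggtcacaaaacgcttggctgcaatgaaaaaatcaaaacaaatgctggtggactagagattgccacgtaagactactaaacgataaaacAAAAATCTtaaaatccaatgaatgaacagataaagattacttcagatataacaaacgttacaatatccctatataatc
LHCB1.3: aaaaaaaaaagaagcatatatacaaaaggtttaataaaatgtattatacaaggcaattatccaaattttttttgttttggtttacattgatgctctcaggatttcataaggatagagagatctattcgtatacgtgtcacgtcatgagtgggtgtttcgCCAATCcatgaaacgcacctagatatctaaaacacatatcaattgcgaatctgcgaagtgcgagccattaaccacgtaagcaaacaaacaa

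The motifs searched on both strands were the G-box (CACGTG), the I-box (GATAAG), the CCA1-binding site (AANAATCT), the evening element (AAAATATCT) and the letters CCAATC, and the TATA box (TATAAA) was searched on the strand of the gene. No matches of different motifs overlapped in the members. The letters CCAATC stood in all 3 LHCB2 stretches, 59, 53 and 54 bases before the start in LHCB2.1, LHCB2.2 and LHCB2.3, and at 91 bases before it in LHCB1.3, but not in that of LHCB1.1. They were present upstream of 11 of the 42 members, which is 26.2%, and of 10.2% of 27443 nuclear protein-coding genes. The CCA1-binding letters stood upstream of LHCB1.1 at 78 bases and of 10 members (13.4% of all genes), and in none of the LHCB2 stretches. The G-box, which is in LHCB2.3, was present in 8 members (6.49% of all genes), the I-box, which is in LHCB2.1, in 9 (12.3%), the TATA box in 12 (32.9%) and the evening element in LHCA5 (2.36%). These matches describe the letters in the window and were not tested for function.

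Others that fell in replicate 1 also belonged mainly to the antenna. LHCB4.2 (AT3G08940), a CP29 gene, had 122, 118, 181 and 169.5 CPM in replicate 1 of se-2 hen2-2, se-2, hen2-2 and WT, against 394 to 498 CPM in the 8 libraries of replicates 2 and 3 (-1.59 ± 0.09), while LHCB4.1, another CP29 gene, was not called (-0.10 ± 0.07). LHCB1.1 had 207, 466, 385 and 308 CPM in replicate 1 of se-2 hen2-2, se-2, hen2-2 and WT, against 732 to 1401 CPM in the 8 libraries of replicates 2 and 3 (-1.56 ± 0.16). LHCB3 (-1.07 ± 0.08), LHCA4 (-1.0 ± 0.07), LHCB6 (-0.81 ± 0.09) and LHCA1 (-0.58 ± 0.10) fell too. In photosystem I PSAD2 (-1.23 ± 0.19), PSAH2 (-0.43 ± 0.08) and PSAN (-0.36 ± 0.09) fell, and in photosystem II PSBY (-0.48 ± 0.10), with LHCB1.2 (-0.46 ± 0.09) completing the 14. Of these, PSAN had the adjusted p nearest to the threshold (0.014, edgeR).

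The 6 genes that rose in replicate 1 had log2 fold changes of 0.25 to 0.81. LHCB4.3 had 14.7, 13, 19.3 and 20.9 CPM in replicate 1 of se-2 hen2-2, se-2, hen2-2 and WT, against 4.05 to 19.9 CPM in the 8 libraries of replicates 2 and 3 (0.81 ± 0.22, adjusted p = 0.02, edgeR), and in se-2 hen2-2 replicate 1 lay between the other libraries. PSBP1 had 376, 442, 626 and 572 CPM in replicate 1 of se-2 hen2-2, se-2, hen2-2 and WT, against 291 to 563 CPM in the 8 libraries of replicates 2 and 3 (0.36 ± 0.09, adjusted p = 0.015, edgeR), and these ranges overlapped across genotypes although replicate 1 was highest within each. LHCA5 (0.34 ± 0.09), PSBQA (AT4G21280, 0.31 ± 0.08), LHCB1.3 (0.28 ± 0.08) and PSBO1 (0.25 ± 0.07) also rose. These rises depended on which libraries were compared, as follows.

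Depth differed along with part of this split, and between libraries of like depth 13 of the 14 lower calls remained and 1 of the 6 higher ones. Replicates 1 and 2 of hen2-2 and WT were of like depth (121 to 157 M counts), and among these 4 libraries 13 members fell and 3 rose in replicate 1 (5.69% and 7.92% of all genes). The 13 were all among the 14 named, without PSAN, and the 4 genes of LHCB2 and LHCB3 were among them. The 3 that rose were LHCB4.3, LHCA6 and PSAE2, of which LHCB4.3 alone was among the 6 above. Of the extrinsic subunits PSBP1 had 0.10 ± 0.07, PSBQA 0.19 ± 0.10 and PSBO1 0.20 ± 0.07 there, and none was called (adjusted p = 0.47, 0.26 and 0.13, edgeR). In se-2 hen2-2 and se-2, where replicate 1 was also the deeper library and depth and replicate number cannot be told apart, 12 fell and 1 rose (4.55% and 5.16% of all genes), and in hen2-2 and WT with all 3 replicates 13 fell and 9 rose (5.52% and 7.89%). With the depth term 10 fell and 2 rose (1.85% and 2.49%), where the 10 were again among the 14 and the 2 were LHCB4.3 and PSAE2. For the depth term itself, beside a replicate term, no member was called, where 0.0617% of all genes were, and 10 members had an unadjusted p under 0.05, beside 1740 of 19454 genes. The 6 higher calls fell to 1 without replicate 1 of se-2, of hen2-2 or of WT.

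**Figure D4:**
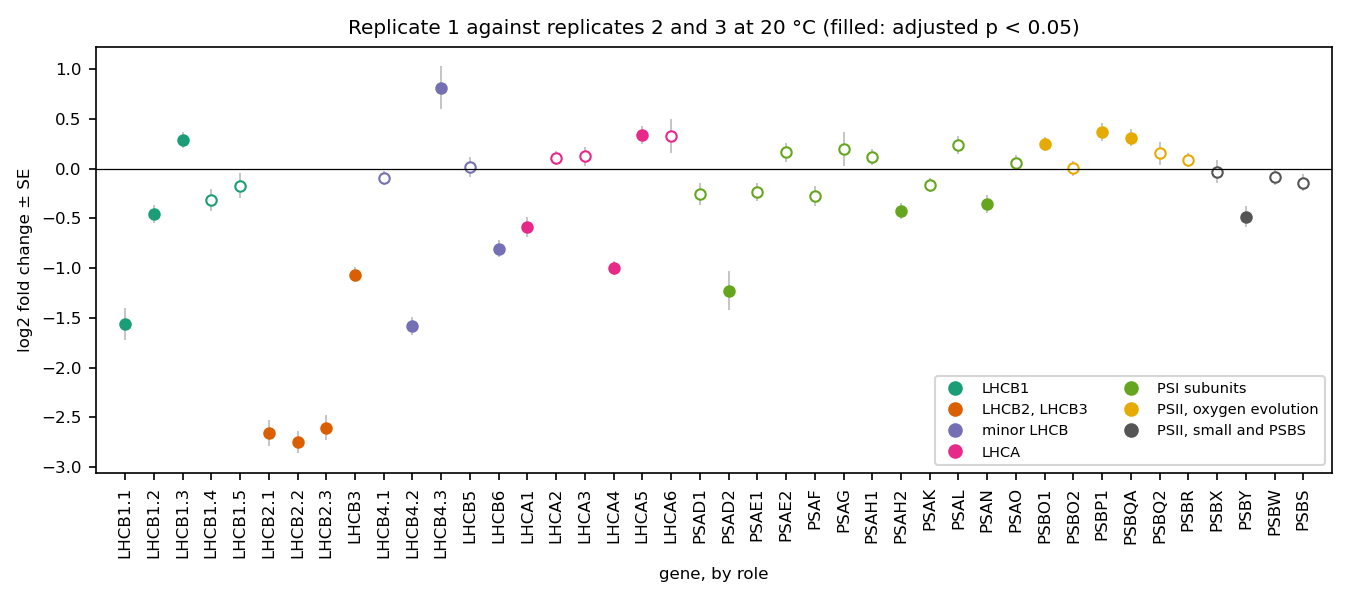
Log2 fold change ± SE of each of the 42 genes in replicate 1 against replicates 2 and 3 at 20 °C, ordered by role, with filled points for genes called by edgeR at an adjusted p under 0.05. The LHCB2 genes lie lowest at -2.75 to -2.60, and LHCB4.3 lies highest at 0.81.

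Genes of the circadian clock moved with the same split, and their part in it was not tested. CCA1 (AT2G46830), a morning-expressed repressor that can bind LHCB promoters, had 0.241, 0.57, 1.06 and 0.377 CPM in replicate 1 of se-2 hen2-2, se-2, hen2-2 and WT, against 12.3 to 27.7 CPM in the 8 libraries of replicates 2 and 3. Its partner LHY had 0.225, 0.39, 0.15 and 0.347 CPM in replicate 1 of se-2 hen2-2, se-2, hen2-2 and WT, against 8.8 to 14.9 CPM in the 8 libraries of replicates 2 and 3. TOC1 (AT5G61380), an evening-expressed component, had 25.9, 33, 32.4 and 30.3 CPM in replicate 1 of se-2 hen2-2, se-2, hen2-2 and WT, against 3.1 to 6.72 CPM in the 8 libraries of replicates 2 and 3. For each of these 3 genes the 4 replicate 1 libraries lay apart from the other 8. Of 9 clock genes 5 fell in replicate 1 (LHY -5.45, PRR9 -5.18, CCA1 -5.14, RVE8 -4.67 and PRR7 -1.24) and 3 rose (ELF4 4.05, TOC1 2.80 and LUX 2.68).

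Regulators and pigment genes were also among the genes called. Of 10 regulators 6 fell in replicate 1 and none rose, with GLK2 at -2.82, PIF5 at -1.70, HY5 at -1.47, GNC at -1.36, PIF4 at -1.19 and PIF1 at -0.72, and GLK1 was not called. GLK2 had 6.33, 5.63, 5.14 and 7.29 CPM in replicate 1 of se-2 hen2-2, se-2, hen2-2 and WT, against 33.5 to 51.7 CPM in the 8 libraries of replicates 2 and 3. Of 16 chlorophyll synthesis genes 6 fell, led by GUN4 (-2.27) and CAO (-1.96), which makes the chlorophyll b that the LHCB proteins bind, and 2 rose. Of 18 Calvin cycle genes 8 rose and 3 fell, and of 13 genes of electron transport 3 rose and 1 fell. Of 8 stress-related relatives and kinases of the antenna 5 fell, among them ELIP2 (-2.80) and STN7 (-0.86), the kinase that phosphorylates LHCB2, and the opposing phosphatase TAP38 rose (0.78). Mesophyll markers summed to 932 to 1540 CPM in replicate 1, against 1361 to 2039 CPM in replicates 2 and 3. Of the 4, 2 were higher and 1 lower, and RCA and RBCS1A among them are also Calvin cycle genes.

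The 22 °C experiment held a split of its own, which is given as values because each replicate number has 1 library per genotype. LHCB2.3 had 36.3, 69.4 and 214 CPM in hen2-2, against 16.5, 33.9 and 200.5 CPM in WT (replicates 1, 2 and 3). LHCB1.1 had 188, 424 and 1212 CPM in hen2-2, against 129.7, 287 and 1305 CPM in WT. LHCB2.2 had 96.4, 183 and 395 CPM in hen2-2, against 88.4, 153 and 393 CPM in WT. In each gene and both genotypes replicate 3 was the highest library, with replicate 2 between the others. Replicate 3 exceeded replicate 1 in both genotypes for 37 of the 42 genes and was below it in both for none, with a median log2 difference of 0.86 and a range of 0.03 (PSAE2) to 3.08 (LHCB2.3). Replicate 2 exceeded replicate 1 in both for 36 genes, with a median of 0.30. The share of all genes with such differences was not computed, so these counts are not read as particular to the members. Most genes of the Calvin cycle, chlorophyll synthesis and electron transport lists were also higher in replicate 3 than in replicate 1. The clock genes differed there too: CCA1 had 2.07, 2.72 and 18.1 CPM in hen2-2, against 3.58, 4.69 and 17.7 CPM in WT, and TOC1 had 31.6, 30.3 and 4.21 CPM in hen2-2, against 27.3, 21.2 and 7.35 CPM in WT.

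Across the 42 genes, those lower in replicate 1 at 20 °C tended to exceed replicate 1 by more in replicates 2 and 3 at 22 °C. The contrasts subtract in opposite order, so a negative correlation means a like direction under these arbitrary numbers. The Pearson correlation of the fold change of replicate 1 at 20 °C with the difference of replicate 3 from replicate 1 at 22 °C was -0.75 (Spearman -0.56), and with that of replicate 2 from replicate 1 it was -0.70 (Spearman -0.65). These are descriptions across genes, which are not independent replicates and which share libraries. LHCB1.4 and PSBS were higher in replicate 3 than in replicate 1 at 22 °C (means of 1.2 and 1.22). For LHCB1.4 this was 0.54 in hen2-2 and 1.85 in WT, and for PSBS 1.17 in hen2-2 and 1.27 in WT. Neither gene was called between replicates at 20 °C (-0.32 ± 0.11 for LHCB1.4 and -0.14 ± 0.09 for PSBS).

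**Figure D5:**
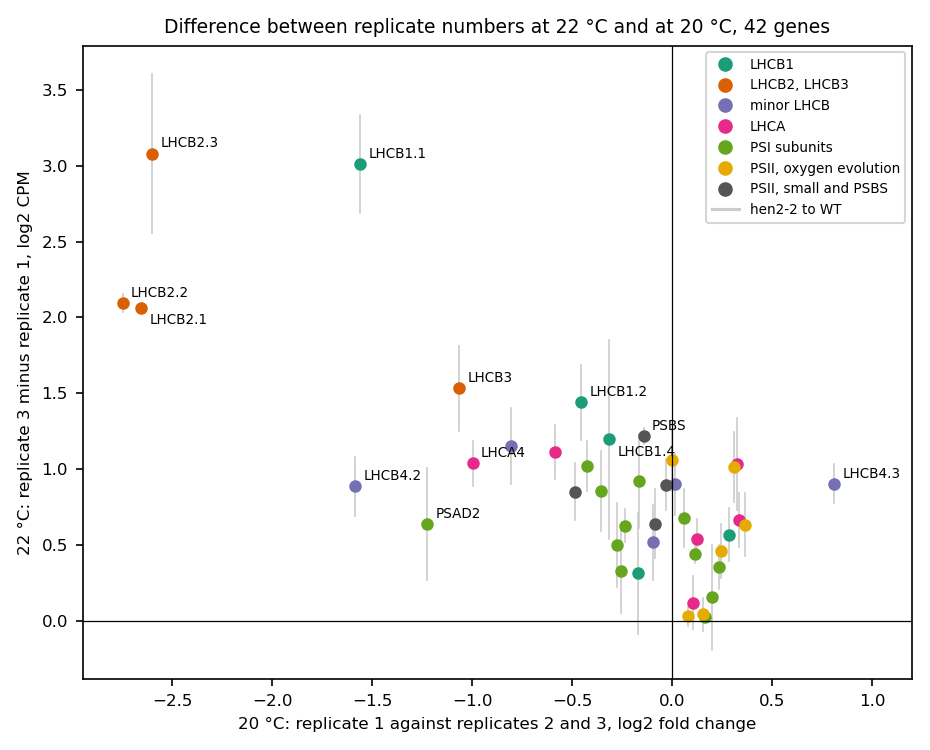
Log2 CPM of replicate 3 minus replicate 1 at 22 °C (mean of hen2-2 and WT, with a line from one genotype to the other) against the log2 fold change of replicate 1 against replicates 2 and 3 at 20 °C, 1 point per gene coloured by role. The LHCB2 genes and LHCB1.1 lie at the upper left, and PSAE2 and PSBR lie near 0 on both axes.

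In several families the copies took different shares in replicate 1 than in replicates 2 and 3. Of all LHCB1 counts at 20 °C, LHCB1.1 took 6.12 to 9.87% in replicate 1, against 19.1 to 22.0% in replicates 2 and 3, and LHCB1.3 took 61 to 65.9% in replicate 1, against 44.5 to 49.1% in replicates 2 and 3. Of all LHCB4 counts, LHCB4.2 took 24.4 to 26.0% in replicate 1, against 47.1 to 50.7%, and LHCB4.1 70.8 to 73.0%, against 47.7 to 52.0%. PSAD2 took 12.4 to 13.9% of PSAD counts in replicate 1, against 18.5 to 28.5%, and PSAH1 34.7 to 38.0% of PSAH counts, against 26.1 to 29.5%. PSAE1 took 69.2 to 73.6% of PSAE counts in replicate 1, against 75.2 to 78.7% in replicates 2 and 3. None of these ranges overlapped, whatever the genotype. In other families the shares overlapped. PSBO1 took 66.7 to 72.4% of PSBO counts in replicate 1, against 62.8 to 69.2%, and PSBQ2 77.2 to 81.1% of PSBQ counts, against 77.95 to 82.8%. The LHCB2 copies fell together: LHCB2.1 took 47.2 to 55.5% of LHCB2 counts in replicate 1 and 42.2 to 53.9% in replicates 2 and 3. At 22 °C LHCB1.1 took 4.81 to 5.37% of LHCB1 counts in replicate 1, 7.45 to 7.77% in replicate 2 and 20.4 to 20.7% in replicate 3.

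The members differed in how much they varied. The SD of log2 deviations from the genotype mean over the 12 libraries at 20 °C had a median of 0.23 over the members and 0.31 over all genes, and 28 of the 42 lay below the median of all genes. It was lowest in PSBO2 (0.08), PSBR (0.09) and LHCA2 (0.09) and highest in LHCB2.2 (1.59), LHCB2.1 (1.54) and LHCB2.3 (1.5). The 9 genes LHCB2.1, LHCB2.2, LHCB2.3, LHCB1.1, LHCB3, LHCB4.2, LHCA4, LHCB6 and PSAD2, chosen after their values were seen, had pairwise correlations of 0.86 to 0.999 over the 12 libraries, which share their replicate numbers. Between them and PSBP1, PSBO1, LHCB5 and LHCA3, also picked by hand, the correlations were -0.79 to 0.09. Those 4 genes had 0.55 to 0.93 among themselves. Both sets were picked from these same libraries, so the contrast between them follows in part from the choice. Of those 9 genes, 5 held CCAATC upstream, 3 the G-box, 3 the I-box, 2 the CCA1-binding letters, 1 the TATA box and 0 the evening element. Over all 861 pairs of members 510 correlations were positive, with a median of 0.18.

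Outside the list, the genes whose deviations were most like the mean deviation of the 42 members were BEE3 (AT1G73830), a bHLH transcription factor of brassinosteroid response, RCA (AT2G39730), which encodes rubisco activase, ABCB1 (AT2G36910), an auxin transporter, and AT1G80440 and USPL1 (AT1G49320). Their Pearson correlations over the 12 libraries were 0.983, 0.983, 0.980, 0.978 and 0.976. They were picked as the highest among the nuclear genes tested. The members' own correlations with this mean ran from -0.686 (LHCA5) to 0.96 (LHCB3), so the mean does not stand for every member. The mean deviation itself was negative in replicate 1 of all 4 genotypes (-0.36 in se-2 hen2-2, -0.27 in se-2, -0.17 in hen2-2 and -0.18 in WT) and between -0.02 and 0.21 in the 8 others.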

How the data were processed

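RNA-seq libraries of 12 leaf samples at 20 °C and 6 at 22 °C were analysed, and 12 small RNA samples were not used here. The libraries were rRNA-depleted and strand-specific. For 20 °C the authors deposited 1 table of counts per gene, made with HISAT2 on TAIR10 and StringTie, which derives counts from read coverage. For 22 °C the authors deposited estimated counts and TPM values per transcript in the layout of Salmon, a tool named without a version in the submitters' processing notes. Estimated counts of 55524 transcripts were summed per gene and rounded to whole numbers, and 2 entries that name no gene were left out.

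Tests used edgeR 4.0.16 in R 4.3.3: the quasi-likelihood F test (two-sided, TMM normalization, filter on low counts, Benjamini-Hochberg adjustment over all genes, called at an adjusted p under 0.05), with 19454 genes tested at 20 °C and 19506 at 22 °C. The 12 libraries at 20 °C shared 1 fit, and the interaction and replicate 1 against replicates 2 and 3 were contrasts. SE values are from the fitted fold change and its F value. The scripts were tested on simulated counts. Alternatives were DESeq2 1.42.0, RLE size factors, no filter, nuclear genes only, summed tandem copies, the compared genotypes only, limma 3.58.1 on log2(TPM + 1) and log2(TPM + 0.1), a replicate block, and each library left out in turn. A term for libraries of over 100 M counts, alone or with the block, was added after seeing the data.

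Libraries with the same replicate number deviated together from their genotype means, with correlations across genes of 0.49 to 0.77 at 22 °C. At 20 °C the correlations were 0.570 to 0.702 in replicate 1, 0.101 (se-2 and WT) to 0.452 in replicate 2 and 0.257 to 0.437 in replicate 3. All were over 0.1, so the numbers were taken to pair the samples, though weakly outside replicate 1 at 20 °C. Values with the replicate term are given where they change a call of a member or the count of a list described. The labels do not say what a number marks. P-values compare a difference with the spread between libraries that was estimated from these samples.

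Genes named with all their values are 14 chosen by role and the 2 with the smallest p in each direction of each comparison, and other named genes follow from lists of related pathways and cell type markers. The members and lists were chosen with earlier results of these data known. Python 3.11.15 was used for descriptions and figures, the RefSeq annotation of TAIR10.1 for names, positions and sequences.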

Additional observations from a re-analysis of the deposited data

Results flagged for a closer look

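With the replicate number as a term in edgeR's quasi-likelihood test of the interaction, LHCB2.3 was called, where 0.139% of all genes were called lower. Without the replicate term no member was called, where 0.0154% of all genes were. For LHCB2.3 the interaction was -1.1 ± 0.20 (SE, adjusted p = 0.045) with the replicate term. It was -1.1 ± 0.20 (adjusted p = 0.041) with a further term for libraries of over 100 M counts. LHCB1.4 was called only with both terms, at -1.09 ± 0.20 (adjusted p = 0.044), and the depth term was added after seeing the data. LHCB2.3 had 16.7, 110.0 and 119 CPM in se-2 hen2-2, 23.9, 154 and 168 in se-2, 49.1, 247 and 213 in hen2-2 and 26.5, 189 and 150.2 in WT. In hen2-2 each library was above the WT library of the same replicate number, and in se-2 hen2-2 each was below that of se-2. Groups of 3 libraries were not searched for single libraries far from the others.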

How the results depend on the processing

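The number of members called depended on the test and on whether the replicate number and the depth were modelled. For se-2 hen2-2 against WT, 3 members were called lower by edgeR, 15 by DESeq2, 22 with the replicate block, 11 with a term for libraries over 100 M, 20 with both terms and 0 when fitted to the compared genotypes only, and the median was -0.56 with the depth term. For se-2 hen2-2 against hen2-2 it was 1 by edgeR, 15 by DESeq2, 27 with the block, 13 with the depth term, 24 with both and 0 with tandem copies summed or in the compared genotypes only. For se-2 hen2-2 against se-2 it was 0, and 2 by DESeq2, 2 with the block, 2 with the depth term and 4 with both. Where no share of all genes is given with the depth term, the count shows only how calls change with the setting. It is not read as a result about the members. With the block 1 member (LHCA1) was called higher in hen2-2 against WT at 20 °C, likewise with both terms, and 1 in the interaction, or 2 with both terms. The block (paired by replicate number) changed no other call of members. In the replicate comparison 6 were called higher, but 3 between replicates 1 and 2 of hen2-2 and WT, 1 within se-2 hen2-2 plus se-2 and 2 with the depth term, and the median was -0.00039 in hen2-2 and WT and -0.24 within se-2 hen2-2 plus se-2. Leaving out 1 library at a time gave 0 to 5 lower calls for se-2 hen2-2 against WT, 0 to 1 against hen2-2, 0 to 1 against se-2 (1 without se-2 hen2-2 replicate 3), 1 to 6 higher calls in the replicate comparison, and medians of -0.60 to -0.37 for se-2 hen2-2 against WT, -0.34 to -0.15 for the interaction and -0.01 (without WT replicate 1) to 0.52 (without WT replicate 3) for hen2-2 against WT at 22 °C. The cause was not tested. Of the summary values under all alternatives 440 stayed within 1.5 times or within the spread and 40 did not, and of those of single genes 423 kept their call and 74 lost it. Counts of all genes called also changed: for se-2 hen2-2 against WT 463 by edgeR, 1199 by DESeq2 and 1564 with the block. Of 19454 genes 84 were called in the interaction with the block and 3 without. Depth did not limit detection of any member, the lowest count being 265. With 3 libraries per genotype, the spread between replicates limits what can be called.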
